A study of Mus musculus with 6 samples.

Results

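Pla2g2d, Pla2g2e, Pla2g2f and Pla2g3 encode secreted phospholipases A2, Pla2g4a, Pla2g4b, Pla2g4d and Pla2g4e encode cytosolic ones, and Ptgs1 and Ptgs2 encode the cyclooxygenases. These 10 genes were found by name among the array's non-control probes, and they were read by 13 probes of 39389 usable probes, or 10 of 31682 genes named on the array. All 13 probes read well above background on each of the 6 arrays, so no member was lost to the filter on dim probes. The measurements came from ear skin of 6 mice, each hybridised alone to a one-colour Agilent array. In the 3 wild-type (WT) mice BP180 kept its NC16A domain, and in the 3 knockout (KO) mice that domain was lacking, per the labels. BP180 is collagen XVII, which holds basal keratinocytes to the basement membrane, and NC16A is the part of it just outside the cell membrane. The mice were described as separate animals matched for age and sex. The sources used here do not state the strain, the ages or the way the NC16A deletion was made. The study's title concerns spontaneous inflammation of the skin of mice with faulty BP180.

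Phospholipases A2 cut a fatty acid, such as arachidonic acid, from membrane phospholipids and leave a lysophospholipid. Cyclooxygenases turn arachidonic acid into the precursor of the prostaglandins, and lipoxygenases turn it into hydroxy fatty acids and leukotrienes. In mouse skin, secreted and cytosolic phospholipases A2 are known from distinct places, among them the outer epidermis, the hair follicle, antigen-presenting cells and mast cells.

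Levels are given as the log2 ratio of processed signal to the 75th percentile of its array, so 0 marks a probe at that percentile. The percentile was 5569 to 7056 intensity units for WT and 4068 to 4712 for KO, and 72.6% to 78.2% of spots were well above background. Slide 1 carried the WT 1, WT 2, WT 3 and KO 1 arrays, and slide 2 carried KO 2 and KO 7. Slide and genotype could therefore be separated only through KO 1, and the difference between KO 1 and the WT mean is given as the slide 1 value. Col17a1, the gene of BP180, differed by -0.13 ± 0.14 on the log2 scale (SE, n = 3 and 3, adjusted p = 0.55), and the sources used here do not say whether its probe lies in the deleted part. Over all 23676 genes tested, the median difference was 0.05. Every KO array lay above every WT array for 20.7% of these genes and below for 14.6%, and 26.6% had an unadjusted p under 0.05 in limma. In such bulk tissue, fewer cells of a type and less RNA per cell cannot be told apart.

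The sequences that carry the 2 differences past the threshold are those of the probes that read Pla2g2e and Pla2g4d. The first 30 bases of each probe are shown from the 5′ end in lower case. The brighter Pla2g2e probe lies at chr4:138438659-138438718 on the plus strand of mm9, the dimmer one at chr4:138438368-138438427 on the same strand, and the Pla2g4d probe at chr2:120091617-120091676 on the minus strand. The files give no exon or UTR for these positions.
Pla2g2e, brighter probe: ctcacaagatccactaagtcgcctctggca
Pla2g2e, dimmer probe: gacaagagagccgctctctgctttcgccac
Pla2g4d probe: ctgttctgtccctagtttgttgagtggttt

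The promoter windows of the same 2 genes, from 250 bases before to 50 bases after the gene's start, were taken from RefSeq (GRCm38.p6). That of Pla2g2e spans chr4:138877692-138877991 on the plus strand, and that of Pla2g4d spans chr2:120289020-120289319 on the minus strand. Capitals mark the matches to 10 motifs searched on both strands. The motifs were AP-1 (TGACTCA), the TATA box (TATAAA), the E-box (CACGTG), CRE (TGACGTCA), LEF1 (CTTTGAA), STAT (TTCNNNGAA), the CCAAT box (CCAAT), NF-kB (GGGNNNTCC), KLF (CCACCC) and C/EBP (TTNNGCAA).
Pla2g2e promoter: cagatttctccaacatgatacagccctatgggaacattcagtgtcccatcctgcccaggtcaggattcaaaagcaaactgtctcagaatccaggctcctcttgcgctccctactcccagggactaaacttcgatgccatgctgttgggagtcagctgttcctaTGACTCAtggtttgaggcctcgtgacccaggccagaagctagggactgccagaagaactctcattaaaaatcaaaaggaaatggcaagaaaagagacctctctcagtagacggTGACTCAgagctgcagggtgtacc
Pla2g4d promoter: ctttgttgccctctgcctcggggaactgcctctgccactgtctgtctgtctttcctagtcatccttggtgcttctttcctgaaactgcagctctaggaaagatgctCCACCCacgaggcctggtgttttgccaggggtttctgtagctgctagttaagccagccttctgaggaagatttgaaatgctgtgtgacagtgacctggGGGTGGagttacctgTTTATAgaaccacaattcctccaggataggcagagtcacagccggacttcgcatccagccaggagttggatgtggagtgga
The Pla2g2e window held the AP-1 letters 2 times, beginning at positions -87 and 27 from the start. Of 32851 promoter windows of this length, 5.20% held these letters at least once and 0.222% at least 2 times. The Pla2g4d window held the TATA letters at -31, on the strand opposite to the one printed. On either strand, 13.6% of the windows held these letters. The Pla2g4d window also held the KLF letters at -144 and -46, which 31.5% of the windows held at least once and 8.47% at least 2 times. No match overlapped another, and the 2 windows shared none of the motifs. These are matches of letters and not measured sites. Of the 10 members, 8 had a promoter entry.

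Pla2g2e rose in KO ear skin and was the one secreted enzyme of the 4 to pass the test, and the other 3 did not pass in either direction. Pla2g2e encodes a secreted phospholipase A2 known in mice from hair follicles and fat tissue. Its level was -0.02, -0.29 and -0.05 in WT 1, WT 2 and WT 3 and 0.97, 0.86 and 1.01 in KO 1, KO 2 and KO 7. The 3 KO arrays lay close together and all above the 3 WT arrays, and the groups were also apart in the unscaled intensities of 6939.6, 4557 and 5659 against 9228, 8016 and 8208. The difference was 1.07 ± 0.13 on the log2 scale (SE, n = 3 and 3; 95% interval from 0.75 to 1.39), or 2.10-fold, with an adjusted p of 0.014 in limma. Of all 23676 genes, 2.01% passed as higher in KO and 2.43% passed in either direction.

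The dimmer Pla2g2e probe also rose. Its log2 level was -3.36, -3.74 and -3.43 in the WT mice and -2.60, -2.65 and -2.68 in the KO mice. The difference was 0.86 ± 0.15 with an adjusted p of 0.041 over all 29602 probes kept, of which 1.76% passed as higher. Both probes thus separated the groups, with unscaled signals of the dimmer one overlapping. The slide 1 value of Pla2g2e was 1.09, and the adjusted p was 0.14 with slide as a fixed block and 0.015 with slide as a random block. The call was also lost without WT 2 (adjusted p = 0.074), without WT 3 (0.057) and without KO 2 (0.057), with differences of 0.98 to 1.12 over all 6 omissions.

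Markers of the hair follicle also differed between the groups, with 10 of those tested higher and 1 lower in mean in KO. Of the 11 follicle markers tested, 9 rose, among them Krt35 by 3.09 ± 0.22, Krt73 by 3.10 ± 0.22 and Krt25 by 4.21 ± 0.38 on the log2 scale, keratins of the hair shaft and the inner root sheath, and Padi3 by 4.30 ± 0.35, a deiminase of the follicle. The summed follicle signal, in units of the 75th percentile, was 11.9 to 18.2 in WT and 68.7 to 119.6 in KO. It was lowest among the KO arrays in KO 7, where Pla2g2e was highest. Among the WT arrays this sum was highest in WT 3, while Pla2g2e was highest in WT 1. Shh, a further follicle marker, was too dim to be tested. The 5 adipocyte markers all had a lower mean in KO, with a median difference of -1.04, and none passed. The part of the follicle and fat signals in the Pla2g2e difference was not tested.

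Pla2g2d, known in mice as a phospholipase of dendritic cells and macrophages that dampens inflammation, had log2 levels of -3.35, -2.61 and -2.61 in the WT mice and -3.42, -3.20 and -3.09 in the KO mice. WT 1 lay among the KO arrays, and the difference of -0.38 ± 0.23 (95% interval from -0.94 to 0.18) did not pass (adjusted p = 0.32). On the dimmer probe of this gene the levels were -4.22, -3.49 and -3.50 against -4.02, -3.58 and -3.62, with a difference of -0.0029 ± 0.24 (adjusted p = 0.995). WT 1 was the lowest array on this probe too. None of the 9 macrophage and dendritic cell markers passed in limma (2 at an unadjusted p under 0.05), and their summed signal overlapped between the groups, at 21.9 to 24.4 in WT and 17.6 to 27.2 in KO. The 2 of lowest p, Cd68 at -1.06 ± 0.29 (adjusted p = 0.10) and Cd163 at -1.01 ± 0.35 (adjusted p = 0.14), were the only 2 below WT in every KO array. Of the 9 macrophage and dendritic cell markers, 3 had a higher and 6 a lower mean in KO, with a median difference of -0.14. The part of these cells in the Pla2g2d values was not tested.

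Pla2g2f encodes the secreted enzyme of the suprabasal epidermis, and its loss in mice is known to disturb the cornified layer. Its level was 2.91, 2.97 and 3.18 in the WT mice and 2.78, 3.10 and 3.32 in the KO mice, with KO 1 the lowest of all and KO 7 the highest. The difference of 0.05 ± 0.18 (95% interval from -0.37 to 0.47, adjusted p = 0.87) was smaller than its error and took the other sign within slide 1, at -0.24. None of 8 suprabasal keratinocyte markers passed in limma (2 at an unadjusted p under 0.05), and their summed signal was 313 to 385 in WT and 399 to 519 in KO, with Krt1 at 1.15 ± 0.29 (adjusted p = 0.088) and Lor at 0.44 ± 0.16 (adjusted p = 0.16). Its part in the Pla2g2f values was not tested.

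Pla2g3 encodes a secreted enzyme known in mice from mast cell maturation. On its brighter probe the levels were -0.37, -0.21 and -0.34 in WT and -0.25, -0.30 and -0.55 in KO, which overlapped. The difference was -0.06 ± 0.14 (95% interval from -0.39 to 0.27, adjusted p = 0.80), with the other sign within slide 1, at 0.06. The dimmer Pla2g3 probe read -4.86, -4.76 and -4.82 in WT and -5.35, -5.23 and -5.43 in KO. On that probe every KO array lay below every WT array, as 15.5% of probes did, with a difference of -0.52 ± 0.13 that did not pass (adjusted p = 0.084), so the probes of this gene disagreed. None of the 8 mast cell markers passed in limma (2 at an unadjusted p under 0.05), and their summed signal was 21.2 to 26.9 in WT and 22.9 to 57.5 in KO, highest in KO 7. The 2 of lowest p, Fcer1a at 1.22 ± 0.34 (adjusted p = 0.10) and Hdc at 1.74 ± 0.62 (adjusted p = 0.15), were the only 2 above WT in every KO array. Of the 8 mast cell markers, 5 had a higher and 3 a lower mean in KO. Their median difference was 0.49, and -0.07 within slide 1.

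Among the cytosolic enzymes, Pla2g4d rose, Pla2g4b and Pla2g4e lay higher in every KO array without passing, and Pla2g4a lay lower without passing. Of all genes, 20.7% lay higher in every KO array. Pla2g4d encodes a cytosolic phospholipase A2 known from human psoriatic skin. Its level was -3.18, -4.06 and -3.82 in the WT mice and -1.57, -2.39 and -1.31 in the KO mice. The groups did not overlap, with KO 2 nearest to the WT arrays and WT 1 nearest to the KO arrays, and the unscaled intensities of 778.5, 332.9 and 416.3 against 1583, 844.9 and 1638 did not overlap either. The difference was 1.93 ± 0.34 (SE, n = 3 and 3; 95% interval from 1.11 to 2.75), or 3.81-fold, with an adjusted p of 0.045 in limma.

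The Pla2g4d difference had the same sign under all alternatives run, from 1.61 to 2.24, and a slide 1 value of 2.11, and its call was fragile. Of the 6 omissions of an array, only that of KO 2 kept the adjusted p under the threshold (0.040), and the others gave up to 0.16. The call was also lost with slide as a fixed block (adjusted p = 0.31) or as a random block (0.051), with quantile normalization (0.056), with scaling to the array median (0.051) and with no filter on dim probes (0.089). The summed signals of the neutrophil and follicle markers also differed between the groups, and their part in the Pla2g4d difference was not tested.

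Pla2g4e encodes an enzyme known in mice to make N-acyl phosphatidylethanolamines, with calcium. Its level was -1.11, -2.19 and -2.19 in the WT mice and -0.55, -0.50 and -0.49 in the KO mice. The KO arrays were nearly equal, while WT 1 lay well above the other WT arrays. The difference was 1.32 ± 0.30 (95% interval from 0.60 to 2.04) and did not pass (adjusted p = 0.075). Without WT 1 it was 1.68 and passed (adjusted p = 0.011), and in unscaled intensity the groups overlapped, since WT 1 at 3274 exceeded the KO arrays at 3222, 3141 and 2903. WT 1 was also the WT array with the lowest summed signal of skeletal muscle markers, at 119 against 229 and 187, and of adipocyte markers, at 37.1 against 81.9 and 67.5. It was likewise lowest in suprabasal (313), basal (244), fibroblast (239), endothelial (3.72), mast cell (21.2) and T cell (2.96) markers. In sebaceous (48.5), neutrophil (4.95) and macrophage and dendritic cell (24.4) markers it was the highest WT array. The part of tissue make-up in the Pla2g4e values was not tested.

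Pla2g4b encodes a related cytosolic enzyme of less well known role. Its level was 0.19, 0.16 and 0.07 in the WT mice and 0.63, 0.61 and 1.01 in the KO mice, with KO 7 the highest. The difference of 0.61 ± 0.15 (95% interval from 0.25 to 0.98) did not pass (adjusted p = 0.086), and the unscaled intensities overlapped. The probe is shown because part of it is shared with many other probes of the array. It lies at chr2:119868539-119868598 on the plus strand of mm9, and its bases 31 to 60 are given with a word of 10 bases in capitals.
Pla2g4b probe: ctggtggGATGGCTCAGcggttaagagtgc
This word also occurs in 31 other probes and in 191 of the 32851 promoter windows. For the other 12 member probes, the most shared word of 10 bases occurs in 15 to 109 other probes. The count for this word therefore does not set the Pla2g4b probe apart. A stretch of 24 bases of the probe, with up to 4 mismatches, was found in 20 other probes, against 0 to 3 for each of the other 12 member probes. Whether other transcripts add to the Pla2g4b signal was not tested.

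Pla2g4a encodes the calcium-dependent cytosolic phospholipase A2 that releases arachidonic acid for prostaglandin synthesis. Its level was 1.76, 1.28 and 0.86 in the WT mice and 0.87, 0.58 and 0.12 in the KO mice. The groups touched at WT 3 and KO 1, and the spread within each group was wide. The difference of -0.78 ± 0.29 (95% interval from -1.46 to -0.10) did not pass (adjusted p = 0.16), and it was -0.43 within slide 1.

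**Figure D1:**
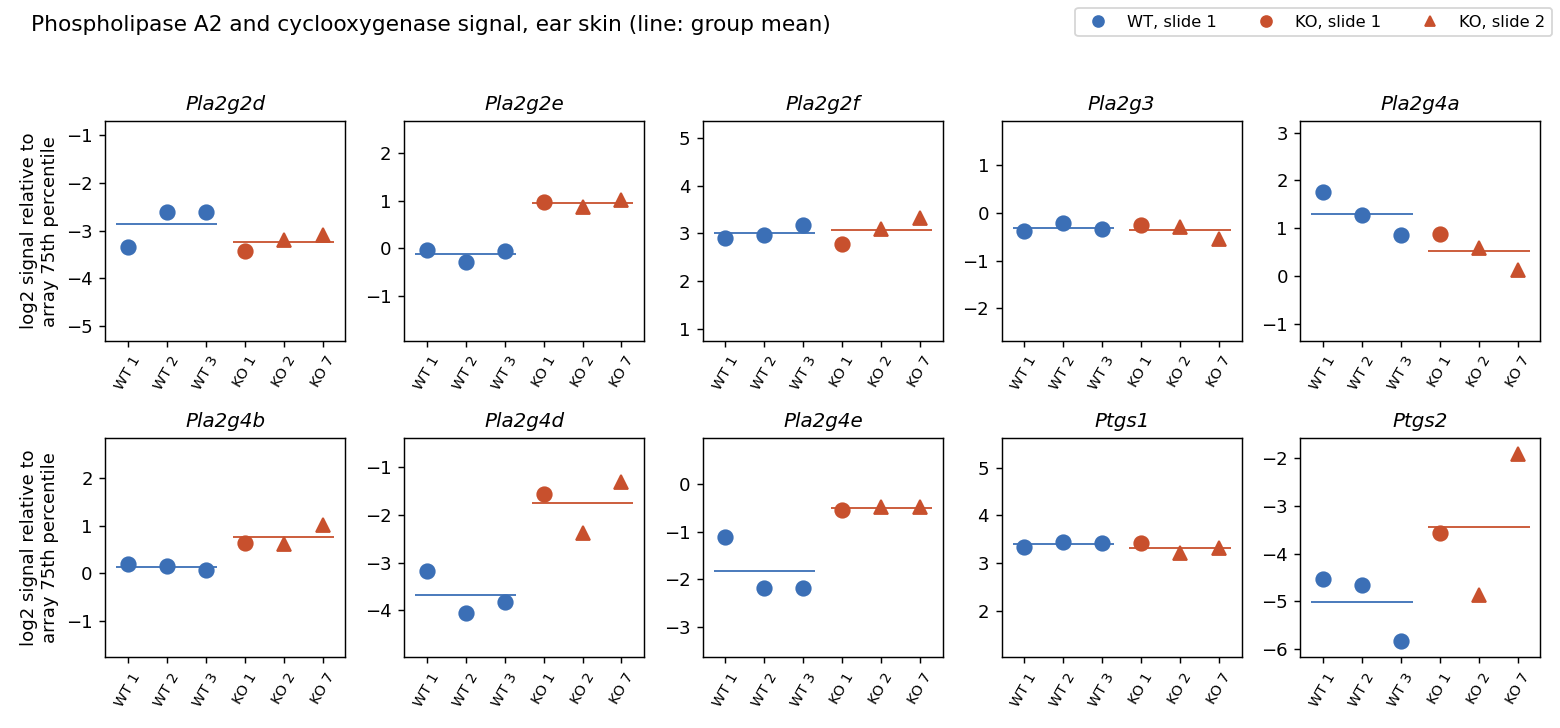
Log2 ratio of signal to the 75th percentile of its array (y axis) of each of the 10 genes on each of the 6 arrays (x axis). Circles are arrays of slide 1 and triangles those of slide 2, with a line at each group mean. The KO arrays lie wholly above the WT arrays for Pla2g2e, Pla2g4b, Pla2g4d and Pla2g4e.

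Neither cyclooxygenase passed. Ptgs1, the cyclooxygenase present in most resting tissues, had levels of 3.34, 3.44 and 3.41 in the WT mice and 3.42, 3.21 and 3.32 in the KO mice. The groups overlapped within a narrow range, and the difference was -0.08 ± 0.12 (95% interval from -0.38 to 0.21, adjusted p = 0.69). Ptgs2, the cyclooxygenase induced by cytokines and injury, was read by 10 spots of its probe on each array.

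The log2 level of Ptgs2 was -4.54, -4.66 and -5.83 in the WT mice and -3.56, -4.87 and -1.92 in the KO mice. KO 2 lay among the WT arrays and KO 7 far above all others, and the spots used on an array varied by 1.54% to 9.17% (coefficient of variation), far less than the mice. The difference of 1.56 ± 0.74 (95% interval from -0.21 to 3.34) did not pass (adjusted p = 0.23). It was 0.80 without KO 7, 2.27 without KO 2 and 0.32 with array weights. KO 7 was also the array with the highest summed signal of neutrophil markers. This array likewise had the highest sum of mast cell (57.5), macrophage and dendritic cell (27.2), T cell (4.94), fibroblast (419) and endothelial (8.62) markers. Its sum of skeletal muscle markers was the lowest (83.1). Of the 7 neutrophil markers tested, 3 rose (S100a9 by 4.68, S100a8 by 4.71 and Cxcr2 by 2.04), and Ngp was too dim to be tested. Ly6g, a neutrophil surface marker, lay below WT in every KO array without passing, at -0.35 ± 0.15 (adjusted p = 0.19). The sum over the 7 neutrophil markers was 2.90 to 4.95 in WT and reached 60.8 in KO 1, 66.0 for KO 2 and 98.1 for KO 7. It adds unlogged levels, so the brightest markers weigh most. With the markers weighted alike, their mean log2 level minus the WT mean was 2.49, 2.35 and 3.54 in KO 1, KO 2 and KO 7. In WT it was -0.70 to 0.72. Neither which cells gave the S100a8 and S100a9 signal nor the part of these markers in the Ptgs2 values was tested.

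Across the 10 members, 2 passed, both higher in KO, against 2.43% of all genes in either direction, and none passed as lower in limma, against 0.422%. At an unadjusted p under 0.05 there were 5 members, of which 1, Pla2g4a, was lower, against 26.6% of all genes. The KO values lay wholly above the WT values for 4 members, against 20.7% of all genes, and wholly below for none, against 14.6%, so that 4 members did not overlap, against 35.3%. Of the 4 secreted enzymes, 1 lay wholly above, and their median difference was -0.01. Of the 4 cytosolic enzymes, 3 lay wholly above, of which 1 passed, and the median of the 4 was 0.97. These 3 include Pla2g4b, whose probe shared a stretch of bases with 20 other probes. The summed signal of the cytosolic enzymes overlapped between the groups, at 3.15 to 5.10 in WT and 3.92 to 4.39 in KO. That of the secreted enzymes also overlapped, at 9.36 to 10.95 in WT and 9.76 to 12.80 in KO. Such sums add unlogged levels, so the brightest genes weigh most. Within slide 1 the medians of the secreted and cytosolic enzymes were -0.09 and 0.89. Over all genes, the median was 0.05 in the whole comparison and -0.012 with slide as a fixed block. With 4 genes in each class, no test of secreted against cytosolic enzymes was made.

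**Figure D2:**
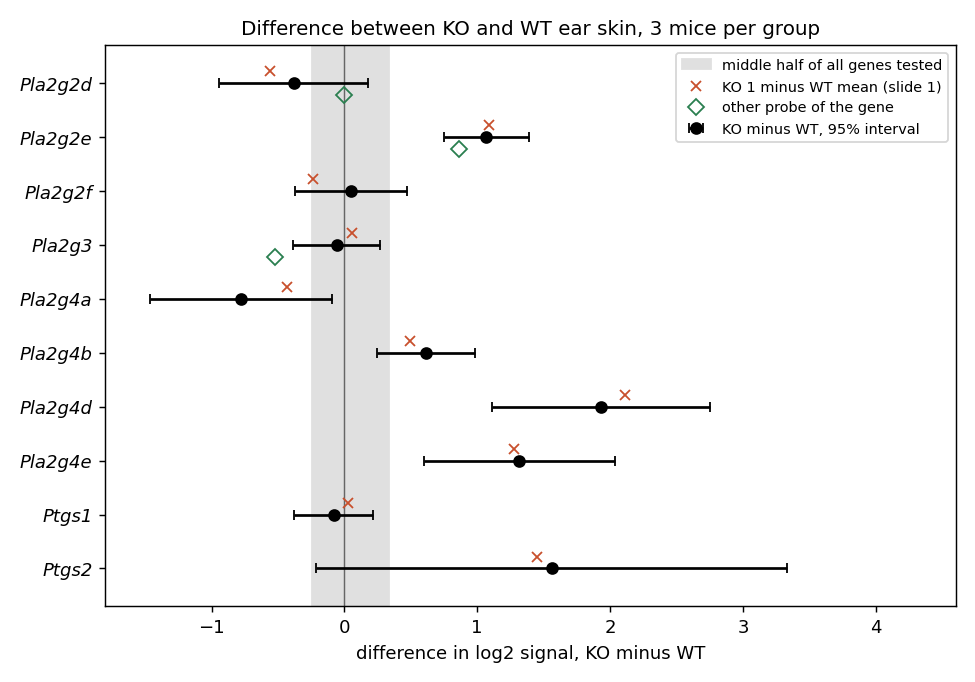
Difference in log2 signal between KO and WT (x axis) for each gene (y axis), as points with 95% intervals from limma, with the slide 1 value as a cross and the other probe of a gene as an open diamond. The intervals of Pla2g2e, Pla2g4b, Pla2g4d and Pla2g4e lie above 0, that of Pla2g4a lies below 0, and the grey band is the middle part of all genes, from -0.24 to 0.33.

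Of the 10 members, 8 lie in 3 groups of neighbouring genes, and Pla2g3 and Ptgs1 lie apart from them. In the RefSeq order along chromosome 4, Pla2g2c, Pla2g2f, Pla2g2d and Pla2g5 come before Pla2g2e. The differences of those 4 genes were 0.05, 0.05, -0.38 and -0.41, and none of them passed, while Pla2g2e, after them in the row, rose by 1.07. On chromosome 2 the order is Pla2g4b, Sptbn5, Ehd4, Pla2g4e, Pla2g4d and Pla2g4f. The neighbours Pla2g4e and Pla2g4d differed by 1.32 and 1.93 and Pla2g4b by 0.61. These genes all lay wholly above WT, as 20.7% of all genes did, and Ehd4 differed by 0.02. Sptbn5, a spectrin gene inside this row, lay lower in every KO array by -0.57 ± 0.12 (adjusted p = 0.069), and Pla2g4f, a further cytosolic phospholipase gene, differed by -0.10 ± 0.23. On chromosome 1, Pla2g4a and Ptgs2 are neighbours, and their differences had opposite signs, at -0.78 and 1.56, with neither past the threshold.

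Of 15 further phospholipase A2 and receptor genes, 13 were tested, and 1 rose, none fell, and their median difference was 0.05. The gene that rose was Pla2g10, which encodes a secreted phospholipase A2 known in mice from the hair follicle. Its log2 level was -8.19, -7.56 and -7.81 in the WT mice and -4.24, -3.82 and -4.52 in the KO mice, with unscaled intensities of 24.2, 29.5 and 26.2 against 249, 314 and 177. The KO arrays were all far above the WT arrays, of which 2 of 3 read the probe well above background. The difference was 3.66 ± 0.24 (adjusted p = 0.0019), with a slide 1 value of 3.61 and an adjusted p of 0.024 with slide as a fixed block and 0.0021 as a random block. It was 2.09 after normexp background correction with an offset of 50, and it passed without each array in turn, with adjusted p values up to 0.015. Of the follicle markers beside it, 9 of 11 rose, as given for Pla2g2e, and their part was not tested. Pla2g4c, a calcium-independent member of the cytosolic family, had a difference of 1.66 ± 0.41 (adjusted p = 0.083).

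Downstream of the phospholipases and cyclooxygenases, no gene of the lists passed in limma. None of 10 prostanoid synthases passed (2 at an unadjusted p under 0.05), with a median difference of -0.18. Ptgds, which makes prostaglandin D2, differed by 0.80 (adjusted p = 0.12). Akr1b3, an aldo-keto reductase that can make prostaglandin F, differed by -0.35. None of 9 prostanoid receptors passed (3 at that unadjusted p), with a median of -0.12. Ptgfr, the prostaglandin F receptor, differed by -0.80 (adjusted p = 0.078). Ptgdr2, a prostaglandin D2 receptor of type 2 immune cells, differed by 1.50 (adjusted p = 0.12) and by 0.47 within slide 1. The 5 genes of prostanoid transport and breakdown, of which 1 reached that unadjusted p, had a median of -0.12, with Abcc4, an exporter of prostanoids, at -0.39 and Ptgr2, a prostaglandin reductase, at -0.48.

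None of 14 lipoxygenase and leukotriene genes passed in limma (6 at an unadjusted p under 0.05, against 26.6% of all genes), and their median was 0.03. Alox12, the platelet-type lipoxygenase that is also found in epidermis, differed by -0.53 (adjusted p = 0.069). Alox8, a lipoxygenase induced in irritated mouse epidermis, differed by 3.58 ± 0.93 (adjusted p = 0.093), and its WT levels rest on dim signal, since 1 of the 3 WT arrays read it well above background. None of 9 genes for lysophosphatidic acid, a lipid made from lysophospholipids, passed (2 at that unadjusted p), and their median was 0.10. Lpar3 and Lpar5, receptors of that lipid, differed by -0.64 (adjusted p = 0.077) and 0.40.

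**Figure D3:**
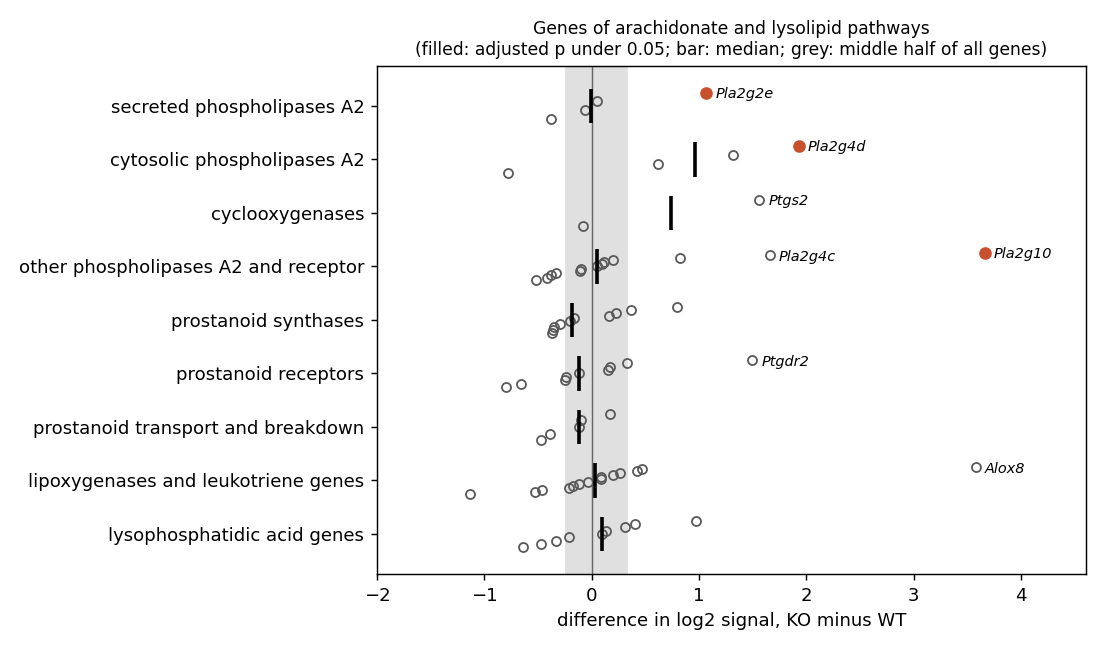
Difference in log2 signal between KO and WT (x axis) of each tested gene of the phospholipase, cyclooxygenase and related lists (y axis), with a bar at each list's median. Filled points passed at an adjusted p under 0.05, and these are Pla2g2e, Pla2g4d and Pla2g10.

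Other cell type markers gave the setting of these values. The 6 sebaceous gland markers were split. Elovl3, a fatty acid elongase, rose by 1.55 ± 0.17. Awat2, Scd1 and Mc5r lay below WT in every KO array without passing, as 14.6% of all genes lay below. Awat2, a wax synthase, differed by -1.50 ± 0.32 (adjusted p = 0.066). Of 5 T cell markers 1 rose, Icos by 2.57 ± 0.36, and Cd3g differed by 0.47 ± 0.15 (adjusted p = 0.12). None of 6 basal keratinocyte, 5 fibroblast, 4 endothelial, 6 skeletal muscle or 5 adipocyte markers passed in limma, with 2, 3, 0, 1 and 3 of them at an unadjusted p under 0.05. The 2 genes of lowest p were Krt5 at 0.53 and Krt14 at 0.49 among basal markers and Col1a2 at 0.67 and Col1a1 at 0.53 among fibroblast markers. They were Vwf at 0.52 and Kdr at 0.44 among endothelial markers. Among muscle markers they were Mb at -0.65 and Ckm at -0.99, and among adipocyte markers Adipoq at -1.32 and Lep at -1.51. The summed signal of the basal markers was 244 to 289 in WT and 313 to 346 in KO, and that of the muscle markers was 119 to 229 in WT and 83.1 to 159 in KO.

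**Figure D4:**
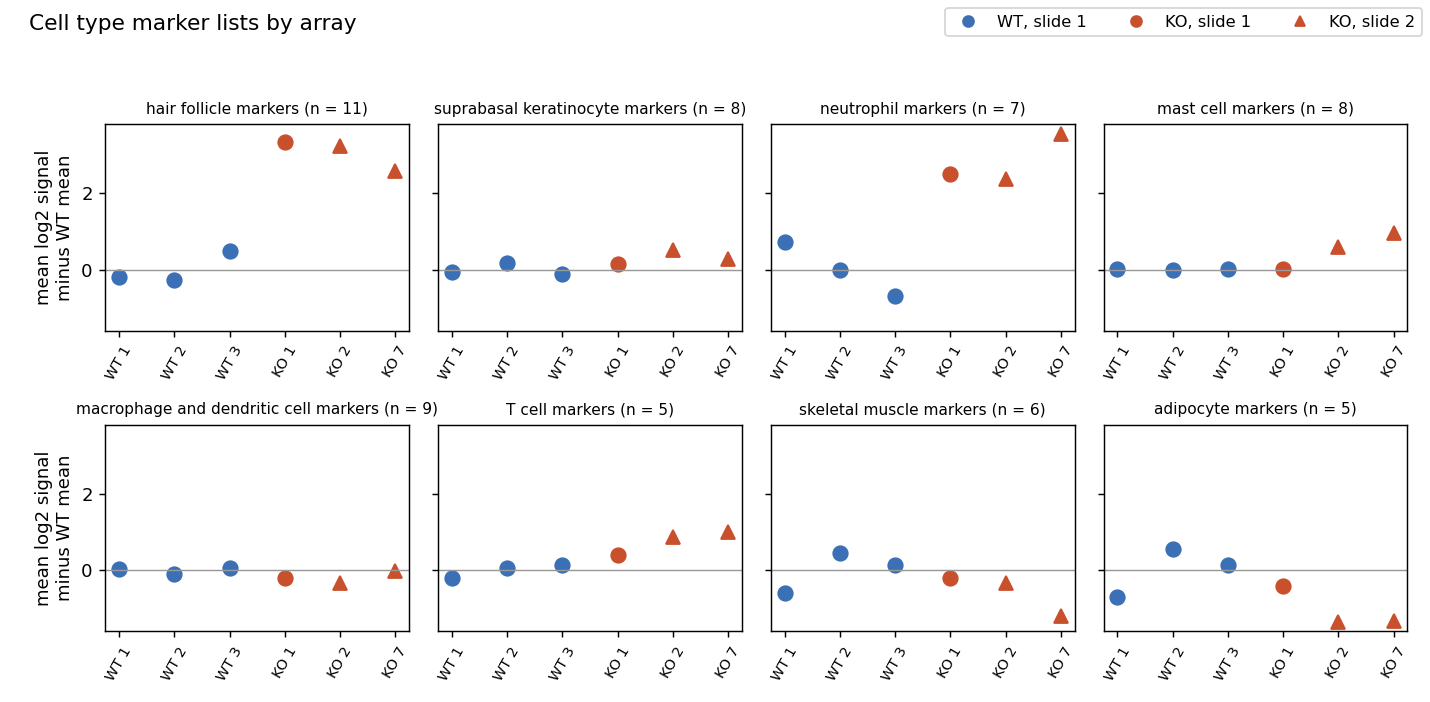
Mean log2 signal of each marker list minus its WT mean (y axis) on each of the 6 arrays (x axis), 1 panel per list with its number of genes, with circles for slide 1 and triangles for slide 2. The hair follicle, neutrophil and T cell lists lie higher on all 3 KO arrays than on any WT array, and the neutrophil list is highest in KO 7, at 3.54.

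The genes whose levels ran most like those of the 2 members that rose were found by Pearson's r over the 6 arrays, which share the group difference and the slides. For Pla2g2e these were an unnamed transcript (r = 0.996), Celf3 (0.994) and Phlda2 (0.993), and 329 genes had an r above 0.95. For Pla2g4d they were Gml (0.998), Olfr482 (0.997) and Gm21944 (0.996), and 182 genes had an r above 0.95.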

How the data were processed

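Total RNA of fresh ear skin was extracted with Qiagen RNeasy kits, per the labels' protocols. Groups and replicate numbers came from the sample titles. The deposited scanner files give each spot's processed signal as an intensity, background-subtracted and not normalized between arrays, per the file headers (Agilent Feature Extraction 10.7.3.1, protocol GE1_107_Sep09, array design 026655, probe positions on mm9). The deposited series matrix held the same intensity values for all 43340 features. The sources used here do not say how the RNA was labelled.

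Of 43020 non-control spots, the 170 to 249 outliers per array were left out, and spots of a probe were averaged. No spot was saturated. Values were log2 of the signal minus each array's 75th percentile. A probe was kept if at least 3 of 6 arrays read it well above background, which left 29602 probes, and the brightest kept probe stood for each of 23676 genes. A RefSeq table (GRCm38.p6) named 26055 probes through their accession, 3195 through a symbol and 930 through a synonym, and 9249 kept the file's name. The difference between KO and WT was tested in limma 3.58.1 under R 4.3.3. The test was two-sided, p values were adjusted over all genes by Benjamini-Hochberg, and the threshold was an adjusted p under 0.05. The number of arrays limits the precision. The test was tried on simulated data. Figures and sequence searches ran in Python 3.11.15.

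Named were all 10 members with each array, from each other list at most the 4 passing genes of lowest p, the 2 genes of lowest p in a list with under 2 passing, all passing genes of a list with 5 or fewer, and the 3 genes most correlated with each member that passed. Sptbn5, Ehd4 and the gene neighbours were named for their position, and Ly6g, Scd1 and Mc5r after their values were seen. Members, lists, rule and tests were chosen with earlier results of these data known. Replicate numbers 1 and 2 occur in both groups, but the labels give no pairing.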

Additional observations from a re-analysis of the deposited data

How the results depend on the processing

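In the main comparison 475 genes were higher and 100 lower in KO, and 2 members were higher and 0 lower. Genes higher and lower, with members higher, numbered 878, 143 and 3 with normexp background (Pla2g4e added), 334, 120 and 1 with quantile normalization, 390, 149 and 1 with scaling to the array median, 268, 29 and 1 with no filter, 569, 129 and 2 with a filter on all 6 arrays, 679, 150 and 2 with an intensity trend, and 396, 75 and 1 with slide as a random block (correlation 0.036). With slide as a fixed block they numbered 158, 9 and 0 (1898 genes at an unadjusted p under 0.05). Array weights gave 4346, 3083 and 4, with 2 members lower, an adjusted p under 0.10 gave 1553, 500 and 4, and a 2-fold minimum gave 426, 67 and 2. The share of calls that were higher was 82.6% in the main comparison, 73.6% with quantile normalization, 72.4% with median scaling and 58.5% with array weights. Median scaling moved the median of all genes from 0.05 to -0.08. Without 1 array at a time, 184 to 718 genes were higher, 19 to 259 lower, 0 to 2 members higher and 0 lower (0 higher without WT 2 or WT 3, 1 higher without each of KO 1, KO 2 and KO 7). The count of higher genes moved by over 1.5 times without WT 1 (298), WT 2 (184), WT 3 (212), KO 1 (718) and KO 2 (224), and that of lower genes without each of the 6 arrays.

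Deviations of same-numbered arrays from their group means correlated at 0.083 (WT 1 and KO 1) and 0.054 (WT 2 and KO 2). With so few arrays and no reference for these values, they cannot decide whether the numbers pair the mice. With replicate number as a block, limma called 0 genes higher, 0 lower and 0 members, with 4499 genes at an unadjusted p under 0.05. Under it Ptgs2 differed by 0.39. This block leaves few degrees of freedom.

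Pla2g2f, near 0 in the main comparison, changed sign with normexp (-0.034), quantile normalization (-0.017), median scaling (-0.081), the replicate block (-0.00012), slide as a fixed block or slide 1 alone (-0.24), without WT 1 (-0.0079) and without KO 7 (-0.079), with a range of -0.079 to 0.19 over the 6 omissions. Pla2g3 changed sign with the replicate block (0.014), slide as a fixed block or slide 1 alone (0.059) and without KO 7 (0.032, with a range of -0.12 to 0.032), and Ptgs1 with slide as a fixed block or slide 1 alone (0.025). Among markers, Lor was -0.0078 with quantile normalization and Krt5 was -0.16 with the mean of its probes. Where no reason is given, the cause was not tested. Dim WT signal limits the sizes given for Pla2g10 and Alox8.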

Other observations

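The probes of Pla2g1b and Pla2g2a, further secreted phospholipases A2, were not tested, since too few arrays read them well above background. Pla2g1b was well above background on 1 array, WT 1, at an intensity of 52.4, and read 5.93 to 19.6 in the KO mice. Pla2g2a was not well above background on any array, with intensities of 5.14 to 9.22.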
